A study of Mus musculus with 2 samples.

Results

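The genes described here are a group of 8 named for StAR and mitochondrial cholesterol import: Star, Stard3, Stard4, Stard5, Stard7, Tspo, Acbd3 and Vdac1. They were chosen by gene symbol, and all 8 symbols matched 1 gene each among the 55536 annotated genes of the tables. The samples were adrenal gland tissue of female mice aged 4 days from the F1 cross B6CASTF1/J, which joins a laboratory genome with that of the wild-derived CAST strain. Each of the 2 libraries was made from 300 ng of total RNA depleted of ribosomal RNA, and carried ERCC spike-in RNA. Both libraries belonged to the same group, and the labels named no treatment, mutant allele or other condition, so the values describe levels and their spread, and no difference was tested between conditions. The tissue text gave the replicates different animal numbers, whereas the library text of replicate 2 carried the number of replicate 1, and both samples were filed under the same donor record. The SD between the replicates may therefore be technical in part and may not be a spread between animals.

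Steroid hormones are made from cholesterol, and the first enzyme of the pathway sits on the inner mitochondrial membrane. StAR, the protein of Star, moves cholesterol from the outer to the inner membrane, which is the acutely regulated and rate-limiting step of adrenal steroid synthesis, and loss of StAR in humans causes lipoid adrenal hyperplasia. Its lipid-binding fold, the START domain, is shared by a family of carriers. Of these, Stard3 encodes a late endosomal membrane protein, Stard4 and Stard5 encode soluble carriers, and the Stard7 protein carries phosphatidylcholine to mitochondria. Tspo encodes a cholesterol-binding protein of the outer mitochondrial membrane whose need in steroid synthesis has been debated, Acbd3 a Golgi protein that binds TSPO and a regulatory subunit of protein kinase A, and Vdac1 a main channel of the outer membrane.

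All 8 genes were detected at 1 TPM or more in both libraries, and Star stood far above the others. So were 26.4% of all annotated genes and 59.3% of the nuclear genes that code for protein detected. Star averaged 816 ± 23.9 TPM (SD, n = 2), which placed it 18th of the 22015 nuclear genes that code for protein. Vdac1 followed at 130 ± 12.2 TPM, then Tspo at 61.7 ± 2.61 TPM and Stard7 at 50.8 ± 1.12 TPM (SD, n = 2 each). The cholesterol carriers Stard3, Stard4 and Stard5 lay between 7.56 and 11.02 TPM in the 2 libraries, and their order could not be told apart. The level of Star rested on a short, incomplete transcript model that held about as much TPM as the full-length transcript but far fewer reads, and the level of Tspo depended on how its short model was handled. The coding sequences of these 2 genes are therefore shown in part first. TPM is a gene's share of the transcripts of a library, from counts divided by effective length.

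The Star coding sequence (transcript Star-201, 855 bases or 285 codons with the stop) was read from the GENCODE M21 transcripts and spans chr8:25808569-25812886 on the plus strand of mm10, introns included. Its first 471 bases, 55.1% of it, are also held by the short model Star-202. The 300 bases around the end of that shared part (coding bases 322 to 621, chr8:25810963-25811371 with an intron left out) are printed 5′ to 3′, and capitals mark the bases that Star-202 also holds. The Tspo coding sequence (Tspo-201, 510 bases or 170 codons with the stop) spans chr15:83571414-83573958 on the plus strand, and Tspo-202 holds its first 308 bases, 60.4% of it. The 300 bases around the end of that shared part (coding bases 159 to 458, chr15:83571572-83573906 with introns left out) are printed in the same way.
Star: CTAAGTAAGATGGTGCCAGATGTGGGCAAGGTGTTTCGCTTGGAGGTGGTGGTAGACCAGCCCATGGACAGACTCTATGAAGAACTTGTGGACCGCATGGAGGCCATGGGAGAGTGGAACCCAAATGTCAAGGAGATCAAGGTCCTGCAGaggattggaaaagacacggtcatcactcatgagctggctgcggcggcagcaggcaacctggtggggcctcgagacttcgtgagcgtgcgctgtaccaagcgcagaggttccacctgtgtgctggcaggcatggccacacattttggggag
Tspo: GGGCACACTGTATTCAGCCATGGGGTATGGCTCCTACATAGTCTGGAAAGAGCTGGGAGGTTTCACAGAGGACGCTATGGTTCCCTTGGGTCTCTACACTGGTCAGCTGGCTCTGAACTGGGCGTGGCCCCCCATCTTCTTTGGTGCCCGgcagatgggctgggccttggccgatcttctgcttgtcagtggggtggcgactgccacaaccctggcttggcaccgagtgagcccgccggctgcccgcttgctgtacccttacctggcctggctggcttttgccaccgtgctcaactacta
In both genes the short model shares the 5′ part of the coding sequence and stops within an exon, so reads from the part in capitals fit either model. Reads from the part in lower case fit the long model alone.

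Star (ENSMUSG00000031574.8) lies at chr8:25806555-25815982 on the plus strand of mm10. Its gene-level expected count, the estimated number of fragments, was 53686 in replicate 1 and 59462 in replicate 2. These were 0.169% and 0.181% of all counts of the libraries, which totalled 31838341 and 32931868. In the second deposited quantification Star stood at 1663 and 1747 TPM and ranked 13. In the gene table, which all levels below are taken from unless stated, it had 798.85 TPM in replicate 1 and 832.66 TPM in replicate 2, so both libraries had Star at nearly the same high level. Star made up 74.0% and 73.9% of the summed TPM of the 8 genes, which was 1079 and 1126 TPM. The nuclear protein-coding genes nearest to Star in level, by distance in log2(TPM + 1) over both libraries, were the ribosomal protein genes Rplp1, Rpl13a and Rps14, at distances of 0.05, 0.09 and 0.11. Cyp11a1, which encodes the side-chain cleavage enzyme that receives the imported cholesterol, stood close to Star in both deposited quantifications. The log2 ratio of Star over Cyp11a1 was 0.12 ± 0.05 in the second quantification and -0.09 ± 0.06 in the gene table (SD, n = 2 each), so which of these genes was higher depended on the quantification. With all Star counts divided by the effective length of its full-length transcript, as described below, Star was at 442 and 473 TPM. Cyp11a1, which was not rescaled in this way, had 823.67 and 912.05 TPM in replicates 1 and 2. In bulk tissue RNA, fewer cells of a type and less RNA per cell cannot be told apart.

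Among the partners at the outer mitochondrial membrane, Vdac1 (ENSMUSG00000020402.11, chr11:52360860-52389397, plus strand) had 6698 counts and 121.47 TPM in replicate 1 and 7935 counts and 138.66 TPM in replicate 2. Tspo (ENSMUSG00000041736.7, chr15:83563592-83574203, plus strand) had 1357 counts and 59.86 TPM in replicate 1 and 1483 counts and 63.55 TPM in replicate 2. Vdac1 was above Tspo in both libraries, and the ranges did not overlap. The gene of the Golgi protein that binds TSPO, Acbd3 (ENSMUSG00000026499.5, chr1:180726043-180754204, plus strand), had 1728 and 1729 counts, or 16.62 and 16.09 TPM, in replicates 1 and 2. Its counts in the 2 libraries thus differed by a single fragment.

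Among the START carriers other than Star, Stard7 (ENSMUSG00000027367.16, chr2:127270218-127298932, plus strand) was the highest, with 4246 counts and 51.62 TPM in replicate 1 and 4375 counts and 50.03 TPM in replicate 2. The endosomal carrier gene Stard3 (ENSMUSG00000018167.10, chr11:98358368-98381112, plus strand) had 559 counts and 11.02 TPM in replicate 1 and 503 counts and 9.62 TPM in replicate 2. The 2 genes of soluble carriers were similar to it. Stard4 (ENSMUSG00000024378.9, chr18:33199355-33213862, minus strand) had 1018 counts and 9.66 TPM in replicate 1 and 829 counts and 8.26 TPM in replicate 2. Stard5 (ENSMUSG00000046027.17, chr7:83631959-83653127, plus strand) had 545 counts and 10.12 TPM in replicate 1 and 414 counts and 7.56 TPM in replicate 2. The ranges of these 3 genes overlapped, whereas the lowest Stard7 value lay above all of theirs. The sum over the 4 START members other than Star was 82.4 TPM in replicate 1 and 75.5 TPM in replicate 2.

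**Figure D1:**
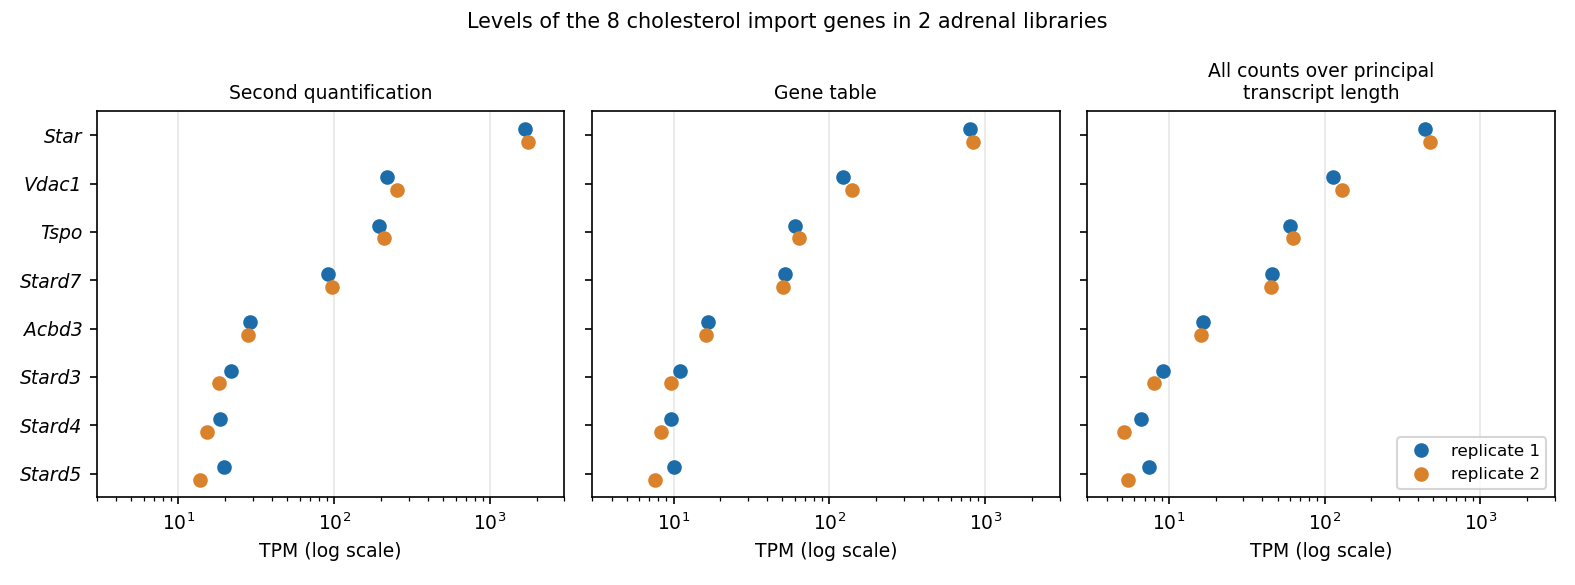
Levels of the 8 genes in TPM on a log axis, in the second quantification, in the gene table, and with all counts of a gene divided by the effective length of its principal transcript; blue points are replicate 1 and orange points replicate 2. Star is rightmost in each panel, and Tspo lies near Vdac1 in the second quantification alone.

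Neighbours in the order of mean TPM were called separated when the gap between their libraries exceeded the larger range between replicates. By this rule 5 of 7 neighbouring pairs were separated, from Star through Vdac1, Tspo, Stard7 and Acbd3 to Stard3. Stard3 and Stard4 differed by a log2 of 0.20 in mean TPM and Stard4 and Stard5 by 0.02, and neither pair was separated. In the second quantification 4 of 7 pairs were separated, because the gap of 10.8 TPM between Vdac1 and Tspo was smaller than the range of 36.1 TPM of Vdac1. The plot of levels shows this as Tspo lying next to Vdac1 there.

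Star exceeded Vdac1 by a log2 of 2.65 ± 0.09, or 6.28-fold, in TPM (SD, n = 2). It exceeded Tspo by 3.73 ± 0.02, or 13.2-fold, and Stard7 by 4.00 ± 0.07, or 16.0-fold. The gaps to the remaining genes were wider: the log2 ratio was 5.64 ± 0.08 over Acbd3, 6.31 ± 0.18 over Stard3, 6.51 ± 0.20 over Stard4 and 6.54 ± 0.34 over Stard5 (SD, n = 2 each). The last is 93.2-fold. In the second quantification the ratio of Star was 2.86 over Vdac1 and 3.09 over Tspo on the log2 scale, the last 8.52-fold. With the counts of each gene divided by the length of its principal transcript, an alternative added after seeing the data, Star was 3.78-fold over Vdac1, 7.45-fold over Tspo and 27.9-fold over Acbd3, and its log2 ratio over Stard7 was 3.32. The value for Acbd3 stands against 49.9-fold in the gene table, and Star was the highest of the 8 genes on each of these scales.

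The 8 genes had 35 annotated transcripts, 16 of them protein-coding, and 29 were above 0 TPM in both replicates and both quantifications. The deposited values split Star between 2 models. Star-201, the principal transcript of the annotation with 7 exons, 4046 bases and the best support level of 1, had 385.89 TPM in replicate 1 and 416.95 TPM in replicate 2. Star-202, with 633 bases, a support level of 5 and no annotated 3′ end, had 412.96 and 415.72 TPM. On the TPM scale the 2 models were thus nearly equal, and Star-202 led in replicate 1 and Star-201 in replicate 2. On the scale of counts they were far apart. Star-201 had 46896 and 52394 counts, 87.4% and 88.1% of the gene, whereas Star-202 had 6790 and 7068 counts, 12.6% and 11.9%.

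The scales differ because counts are divided by effective length, which was 534 bases for Star-202 and 3947 bases for Star-201. The second quantification used effective lengths of 303 and 302 bases for Star-202 in replicates 1 and 2. There Star-201 held 40.7% and 41.7% of the TPM of Star, but 89.4% and 89.8% of its counts. Of the 633 bases of Star-202, 566 (89.4%) lie on exon bases of Star-201, and 67 are its own. Its annotated start lies 1919 bases upstream of that of Star-201. When all Star counts were divided by the effective length of Star-201, the level of the gene was 442 and 473 TPM, a mean of 457 ± 22.2 (SD, n = 2) or 0.561 of the deposited mean. Treated in the same way, Vdac1 stood at 121 ± 11.7 TPM and Tspo at 61.4 ± 2.40 TPM, so Star remained the highest of the 8, by a log2 of 1.92 over Vdac1. The deposited TPM of Star also lay outside its own deposited interval in both replicates, above 769 to 794 TPM in replicate 1 and above 803 to 828 TPM in replicate 2. Among 13054 detected nuclear protein-coding genes 136 (1.04%) lay outside in both replicates, and Star was the only such gene of the 8.

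**Figure D2:**
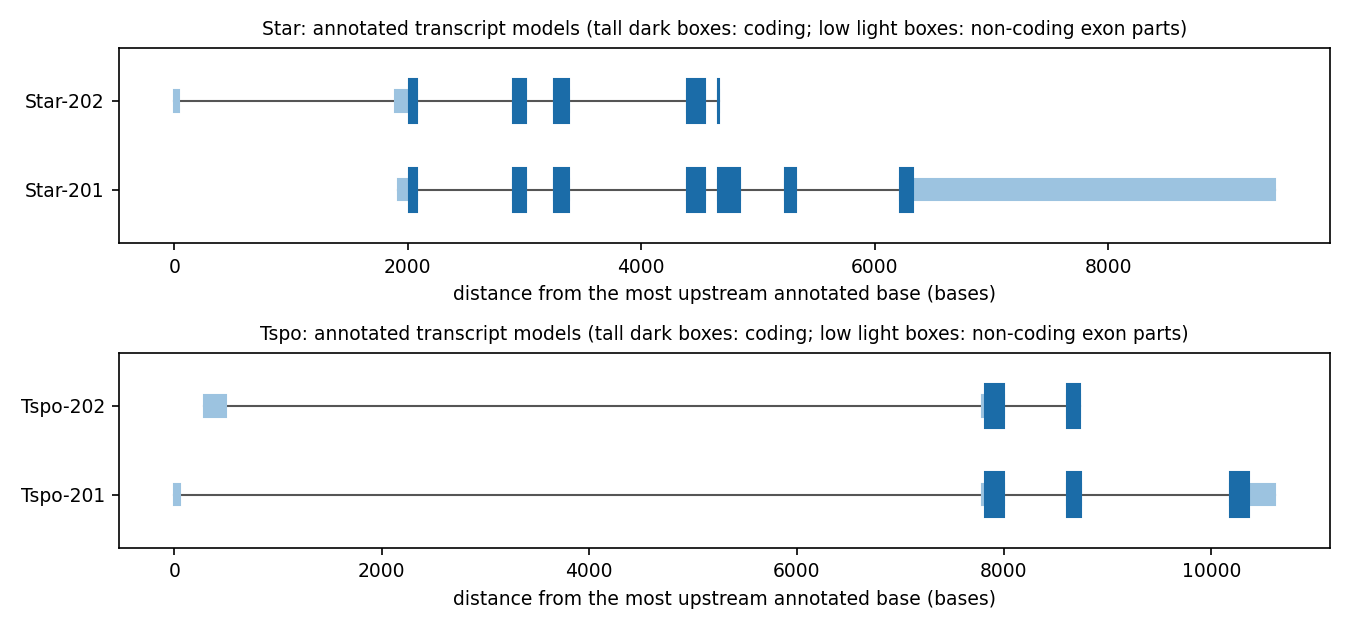
Exon models of Star-202 and Star-201 and of Tspo-202 and Tspo-201, drawn to scale against the distance in bases from the most upstream annotated base; tall dark boxes are coding and low light boxes non-coding parts of exons. The short models end inside the coding sequence, and Star-202 begins 1919 bases upstream of Star-201.

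Tspo behaved differently in the 2 quantifications. Tspo-202, a model of 551 bases with its own first exon and no annotated 3′ end, had 101 and 113 TPM in the second quantification, against 0.37 and 1.11 TPM in the first. Its counts were 477 and 554 in the second and 5.10 and 15.9 in the first. The principal transcript Tspo-201 accordingly held 47.9% and 45.6% of the TPM of Tspo in the second quantification, against 99.4% and 98.3% in the first. The counts of the whole gene differed far less, with 1470 and 1608 in the second against 1357 and 1483 in the first.

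Across 13022 detected nuclear protein-coding genes the second quantification gave higher TPM than the first, and the median of the log2 ratio was 0.87 in replicate 1 and 0.85 in replicate 2. Tspo lay at 1.69 and 1.71, above the 95th percentile of these genes at 1.42 and 1.41. Star, at 1.06 and 1.07, and the other 6 genes, between 0.79 and 0.97, lay between the 5th and 95th percentiles. Tspo was thus the only member whose level relative to other genes moved beyond that range, and its rank among protein-coding genes was 543 in the second quantification and 1043 in the first.

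**Figure D3:**
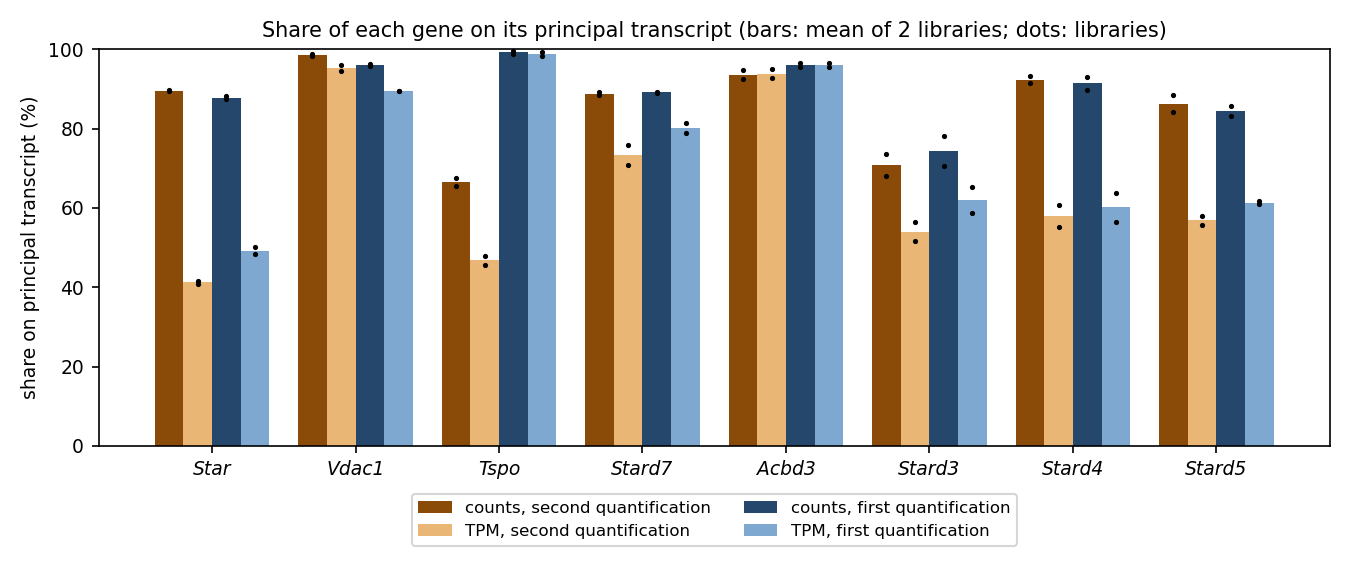
Share of each gene on its principal transcript, in percent of the gene's counts (dark bars) and of its TPM (light bars), in the second quantification (brown) and the first (blue); bars are means of 2 libraries and dots the libraries. Star shows a wide gap between counts and TPM in both quantifications, and Tspo a gap between quantifications.

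The other 6 genes had a stable leading transcript, which was the principal transcript in both replicates and both quantifications. In the first quantification it held 95.6% and 96.6% of the TPM of Acbd3, 89.6% and 89.5% of that of Vdac1, and 78.9% and 81.3% of that of Stard7, in replicates 1 and 2. The genes of the cholesterol carriers were the most divided: the single protein-coding transcript of Stard3, which has 7, held 65.2% and 58.8% of its TPM, and non-coding transcripts held 34.8% and 41.2%. The principal transcript of Stard4 held 63.7% and 56.5% of TPM but 93.0% and 89.7% of its counts. That of Stard5 held 60.9% and 61.8% of TPM, while retained-intron models held 36.6% and 36.4%, equal to 13.1% and 11.6% of the counts of Stard5. Within Stard7, a non-coding transcript of 679 bases was at 5.24 and 15.9 TPM in the second quantification and at 0 TPM in both replicates of the first.

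Most of the 8 genes shared little sequence with other genes. Gene-level counts were whole, within 0.005, in both replicates for all 8 genes, as for 81.6% of the 13734 genes whose mean count reached 100. Of the distinct 31-base words of each gene's transcripts, none was shared with transcripts of another gene for Tspo and Stard3, and 1 word (0.0245%) was shared for Star. The largest shared part was 7.72% for Vdac1, whose words occurred in 11 other genes, most often in Gm16102, with 57 words. Stard5 shared 1.96%, most often with Gm45838, an unverified gene model on the same strand that overlaps it by 2447 bases and had 99 and 36 counts in replicates 1 and 2. Il16, with 309 and 326 counts, overlaps Stard5 by 10303 bases on the opposite strand, and Mcat overlaps Tspo by 196 bases on the opposite strand. Gm37768, annotated as antisense to Acbd3, had 0 and 1 counts. The libraries are directional per the labels, but whether counting used the strand is not stated there, and the part of these overlaps in the levels of Stard5, Tspo and Vdac1 was not tested.

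Between the 2 libraries each of the 8 genes differed by less than 2-fold. After scaling by TMM, the log2 ratio of replicate 2 over replicate 1 had a median of 0.02 over the 8 genes, as it did over all 13734 genes whose mean count reached 100. Of the 8, 4 were higher and 4 lower in replicate 2, so this median does not give the size of their differences. Without sign, the median over the 13734 genes was 0.11. Star, Vdac1, Tspo, Stard3, Stard4 and Stard5 lay further from 0 than that, and Stard7 and Acbd3 nearer. None of the 8 reached a 2-fold difference, as 3.21% of the 13734 genes did. A smaller limit asked that the larger value exceed the smaller by 25%. By that limit 1 of the 8 genes differed, Stard5, against 12.9% of those genes in either direction and 6.66% in its direction, lower in replicate 2. When scaled by total counts or by spike-in totals, Stard4 passed it as well, at a log2 ratio of -0.34 by the first and -0.38 by the second, so that 2 of the 8 differed, against 13.1% and 14.0% of those genes. These fold limits are rules of size and not tests.

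Stard5 was lower in replicate 2 by the widest margin of the 8, with a log2 ratio of -0.40 and a 95% interval for counting error of -0.59 to -0.21. Stard4 followed at -0.30 (-0.43 to -0.17), and Stard3 at -0.16 (-0.33 to 0.02). Vdac1 was higher in replicate 2 at 0.24 (0.19 to 0.29), as were Star at 0.14 (0.13 to 0.16) and Tspo at 0.12 (0.02 to 0.23). Stard7 at 0.04 (-0.02 to 0.10) and Acbd3 at -0.00 (-0.10 to 0.09) had intervals that included 0. The intervals lay below 0 for 2 of the 8 genes, against 17.8% of all 13734 genes, and above 0 for 3 of the 8, against 23.4%. They cover counting error only and hold no spread between animals or libraries. Copies of 1 molecule cannot be recognised in these reads, so the intervals may be too narrow even for counting error. The sign was the same under the 5 other scalings tried for Star, Tspo, Vdac1, Stard3, Stard4 and Stard5. For Stard7 and Acbd3 it flipped with the scaling, and Acbd3 ran from -0.08 by spike-in totals to 0.03 in the second quantification.

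**Figure D4:**
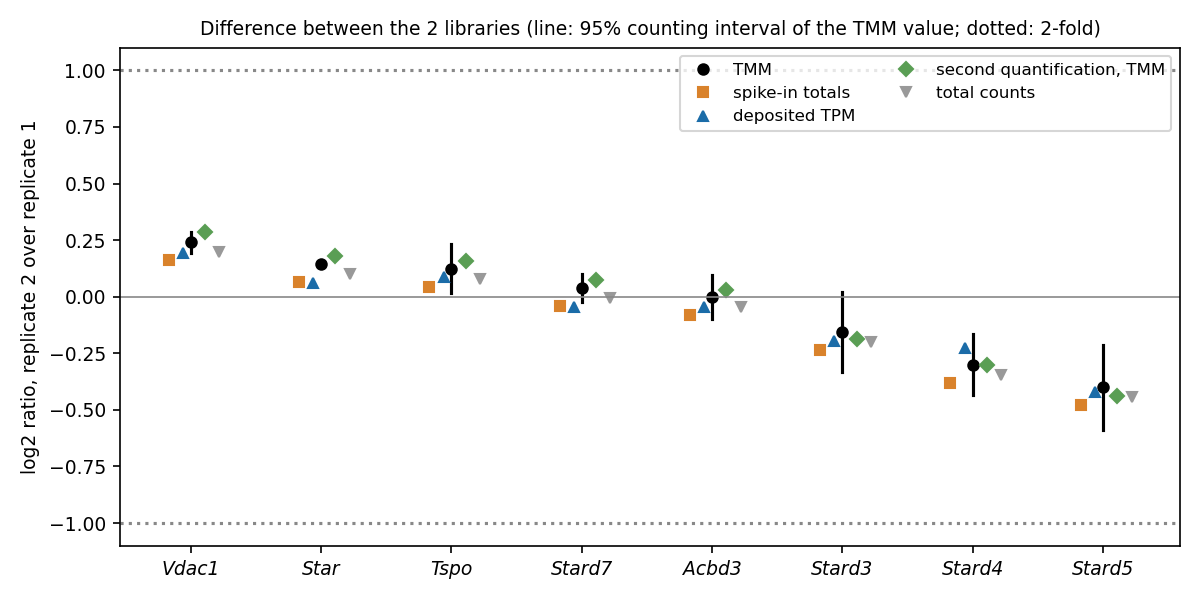
Log2 ratio of replicate 2 over replicate 1 for each gene under 5 scalings, with the 95% counting interval of the TMM value as a vertical line and 2-fold as dotted lines. Vdac1, Star and Tspo lie above 0 and Stard3, Stard4 and Stard5 below 0 under each scaling drawn, and all lie inside the dotted lines.

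The libraries differed far more in markers of exocrine pancreas, kidney, skeletal muscle and liver. Of 12 marker lists, that of the exocrine pancreas, led by Ctrb1, had a sum of 3225 TPM in replicate 1 against 0.51 TPM in replicate 2, where Cela2a and Prss2 were at 0. The kidney genes, led by Slc34a1, summed to 89.0 and 9.08 TPM. Skeletal muscle genes, led by Acta1, summed to 304 and 1919 TPM, liver genes, led by Alb, to 85.7 and 348 TPM, and macrophage genes, led by Lyz2, to 75.0 and 106 TPM, in replicates 1 and 2. Blood genes, led by Hba-a1, summed to 3647 and 2630 TPM, and fibroblast genes, led by Col3a1, to 1041 and 1213 TPM. Of the 5 fibroblast genes 4 were higher in replicate 2, and Pdgfra was lower, at a log2 ratio of -0.19. The sums of endothelial genes, led by Plvap, and of ovary genes, led by Amh, were close, at 173 and 173 TPM and at 0.74 and 0.76 TPM. Brown fat genes, led by Ucp1, summed to 208 and 215 TPM, but of the 3 whose mean count reached 100, the log2 ratio of replicate 2 over replicate 1 was 0.45 for Cidea, 0.33 for Adipoq and -0.12 for Ucp1. The part of these tissues in the differences of the 8 genes was not tested. The gland's own markers were all present: 6 of 6 steroidogenic cortex genes, led by Hsd3b1, summed to 5269 and 5852 TPM, and 6 of 6 chromaffin genes, led by Chga, to 1836 and 2150 TPM. The median log2 ratio of replicate 2 over replicate 1 was 0.15 for the cortex genes and 0.27 for the chromaffin genes. Over the other lists with genes whose mean count reached 100, it ran from -13.4 for exocrine pancreas to 2.66 for skeletal muscle. Star was at 0.14, and the part of cell make-up in that difference was not tested.

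The other genes with a START domain stood well below Star. Of 10 listed, 9 were at 1 TPM or more in both libraries, as 59.3% of nuclear protein-coding genes were, and they summed to 127 TPM in each replicate. The same share of 59.3% stands beside the number of detected genes in each list below. The highest were Dlc1, which encodes a GTPase-activating protein, at 41.1 ± 2.07 TPM, Col4a3bp, which encodes the ceramide carrier CERT, at 35.6 ± 0.474 TPM, and Stard10 at 12.5 ± 2.63 TPM (SD, n = 2 each). Stard7 thus exceeded each of them. Acot12 was under 1 TPM in both libraries, at 0.14 and 0.19 TPM.

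Of 9 genes listed for outer membrane proteins, TSPO partners and related proteins, all were at 1 TPM or more, with a sum of 786 and 855 TPM. Dbi, which encodes the acyl-CoA-binding protein that is a TSPO ligand, had 163 ± 13.9 TPM, Prkar1a, the kinase subunit gene whose protein binds ACBD3, 154 ± 0.919 TPM, and the adenine nucleotide carrier gene Slc25a5 148 ± 6.43 TPM (SD, n = 2 each). Tspo itself was thus below Dbi in both libraries. None of the 8 of these genes whose mean count reached 100 differed 2-fold between the libraries.

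All 13 genes for the import, processing and turnover of StAR protein and for handling of its mRNA were detected, with a sum of 1067 and 1087 TPM and no 2-fold difference. The chaperonin gene Hspd1 had 263 ± 4.64 TPM, the prohibitin gene Phb2 145 ± 3.85 TPM, and Lonp1, whose protease degrades StAR in the matrix, 113 ± 1.54 TPM (SD, n = 2 each). Of 10 genes for endosomal and non-vesicular cholesterol transport, 9 were detected, with a sum of 436 and 445 TPM. Gramd1b, whose protein moves cholesterol from the plasma membrane to the endoplasmic reticulum, led with 173 ± 3.45 TPM, followed by the sterol carrier gene Scp2 at 62.6 ± 2.55 TPM and the mitofusin gene Mfn2 at 51.4 ± 1.91 TPM (SD, n = 2 each). Among the 8 genes, Star alone was higher than Gramd1b in both libraries of the gene table. In the second quantification Gramd1b had 243 TPM and Vdac1 254 TPM in replicate 2.

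**Figure D5:**
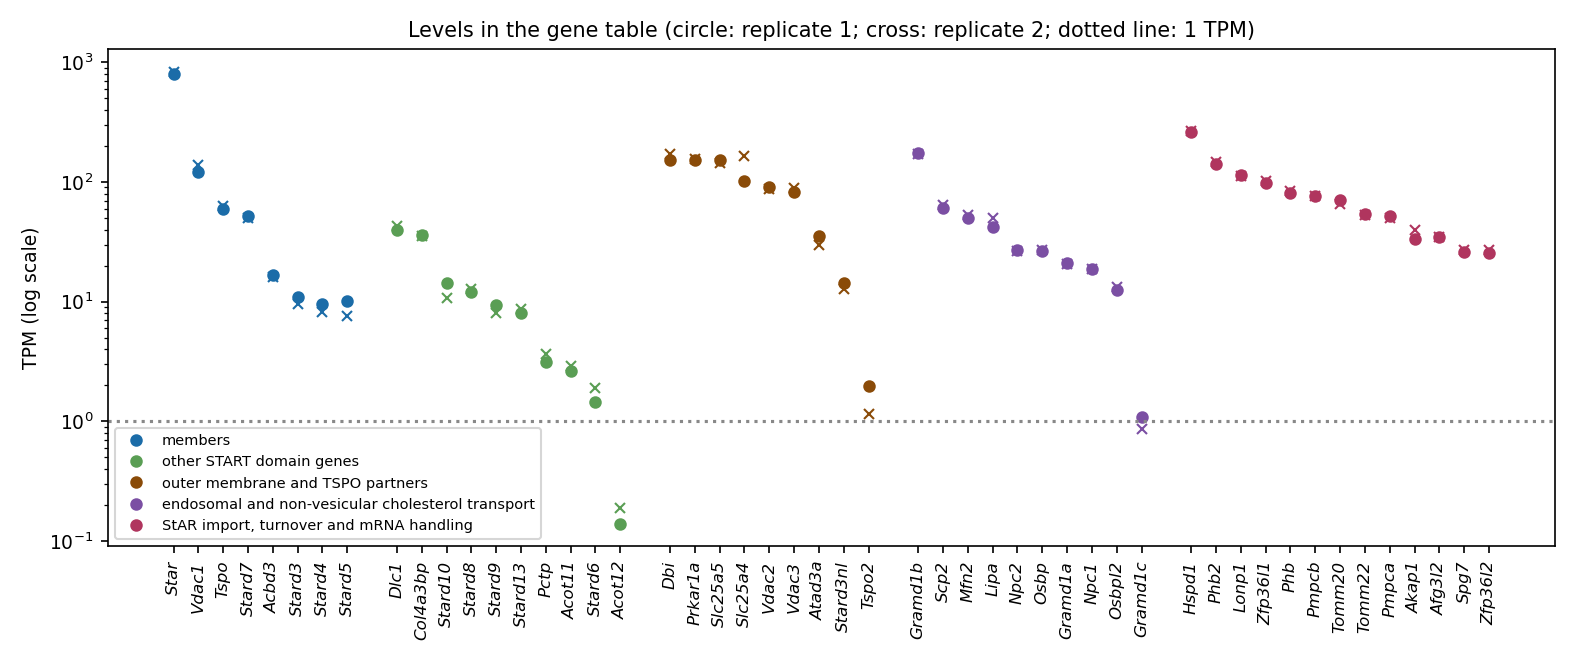
TPM on a log axis of the 8 members and of 4 lists of related genes; circles are replicate 1, crosses replicate 2, and the dotted line marks 1 TPM. Star is the highest gene drawn, and Acot12 lies below the line in both libraries.

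All 13 listed transcriptional regulators of Star were detected, and they summed to 461 and 513 TPM. Nr5a1, which encodes the steroidogenic factor SF-1, had 157 ± 4.54 TPM, Cebpb 92.1 ± 14.5 TPM and the sterol regulator gene Srebf1 45.6 ± 3.85 TPM (SD, n = 2 each). Nr4a1, an immediate early gene that encodes an orphan nuclear receptor, was the only gene of the 7 pathway lists whose mean count reached 100 to differ 2-fold, with 23.03 TPM in replicate 1 against 50.82 TPM in replicate 2. Its log2 ratio was 1.24, with a 95% interval for counting error of 1.15 to 1.32. Star differed by a log2 of 0.14 between the same libraries.

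Stard4 is itself known to be a target of SREBP, through which cells regulate genes by their sterol level. Of 12 SREBP target genes listed 11 were detected. The cholesterol synthesis gene Hmgcs1 led with 75.1 ± 1.58 TPM, and Dhcr7 followed with 67.5 ± 0.735 TPM (SD, n = 2 each). By TMM 9 of the 11 were lower in replicate 2, as 44.7% of all 13734 genes were. The median log2 ratio of the 11 was -0.15. Under the 5 other scalings 8 to 11 were lower, against 38.9% to 65.7% of those genes. The count of 11 and the share of 65.7% both came from spike-in totals. The counting interval lay below 0 for 6 of the 11, as it did for 17.8% of those genes. By TMM, Hmgcs1 was among the 9 at a log2 ratio of only -0.00 (-0.05 to 0.05), and Dhcr7, at 0.07 (0.01 to 0.13), was higher in replicate 2. Stard4, at -0.30, was lower in replicate 2. So were 2 members that are not on this list, Stard5 at -0.40 and Stard3 at -0.16, the last with an interval that included 0. Whether sterol level had a part in these differences was not tested.

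The steps after import were abundant in both libraries. Hsd3b1, the next enzyme gene, had 2392 ± 252 TPM, Cyp11a1 868 ± 62.5 TPM, and Fdx1, which encodes the electron carrier ferredoxin, 301 ± 4.81 TPM (SD, n = 2 each). Star was higher than Fdx1 and lower than Hsd3b1 in both libraries, also in the second quantification.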

How the data were processed

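Total RNA-seq tables of 2 libraries from 1 group were used, grouped by the labels' tissue, sex, age and strain. Per the file headers, the authors' gene table gives an expected count, TPM and TPM interval bounds per gene, and a first transcript table gives the same with the isoform share in percent. A second deposited transcript table gives estimated counts and TPM, and was summed to genes. Per the authors' notes the assembly is mm10 and the annotation M21. Aligner and quantifier: not given in the sources used here. What CAST alleles do to mapping on mm10 was not tested.

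Members were found by symbol. The members and gene lists were chosen with earlier results of these data known. Levels are deposited TPM as mean and SD. Detection meant 1 TPM or more in both libraries. Ratios between replicates took TMM-scaled expected counts plus 0.5 where the mean count reached 100, with 95% exact (Clopper-Pearson) intervals conditional on the summed count. The TMM factors were 1.02 and 0.985. Spike-in RNA took 0.900% and 0.923% of counts. The limit behind a count of 0, taken as 3 counts, was 9.42e-06% and 9.11e-06% of the library. With 2 libraries an exact two-sided sign permutation could not go below a p of 0.5, so no p-value is given. No pseudocount was used for the ratios of Star over other genes.

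Named genes were all 8 members, the 3 highest of each pathway list, those under 1 TPM in both libraries, those past 2-fold, the highest of each marker list, and the 3 genes nearest to Star; 2 genes that this rule took are not reported here. Genes named for sharing sequence or position with a member, Cidea, Adipoq and Pdgfra were chosen after their values were seen. So were the values per principal transcript length and per count share. Alternatives were DESeq2 size factors, total counts, spike-in totals, deposited TPM, the second quantification, pseudocounts, thresholds and each library alone. A comparison of member proteins was not run. The ratio and interval steps were checked on simulated counts that held counting error only, so the check does not cover spread between libraries. Tools were edgeR 4.0.16 and DESeq2 1.42.0 in R 4.3.3, and Biopython 1.88, scipy 1.17.1, pandas 2.3.3, matplotlib 3.10.9 and numpy 2.4.6 in Python 3.11.15.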

Additional observations from a re-analysis of the deposited data

How the results depend on the processing

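Of 180 alternative values, 123 stayed, 57 moved, and none reversed a called value. Of 122 levels, shares and Star ratios, 46 moved by more than the SD between replicates, and of 40 ratios between replicates 8 moved beyond their counting interval. The 122 include values from each library alone. With 2 libraries these always lie within the SD of the mean, so they could not be called moved, and they swell the number that stayed. Of 18 counts and orders 3 changed by more than 1.5 times. The mean level of Star was 1705 TPM in the second quantification, 909 TPM when rescaled to nuclear annotated genes alone, and 457 TPM with all counts over the principal transcript length, an alternative added after seeing the data, against 816 TPM as reported. With each library alone it was 799 to 833 TPM. Its log2 ratio over Vdac1 was 2.86 in the second quantification and 1.92 with principal transcript lengths, against 2.65. Star-201 held 41.2% of the TPM of Star in the second quantification and 87.7% of its counts, the last also added after seeing the data, against 49.2% of TPM in the first. Tspo-201 held 46.7% of TPM in the second quantification, against 98.8% in the first. With a limit of 25% in place of 2-fold, 1 gene of the 8 passed in place of 0, and with total counts or spike-in totals in place of TMM, added after seeing the data, 2 passed in place of 1. Detection of all 8 genes held at 0.5 and 5 TPM and in the second quantification. The cause of these shifts was not tested beyond the lengths and models described above. No paired analysis was possible because both libraries belong to the same group. Depth limits the ratios of Stard3, Stard4 and Stard5, which rest on 414 to 1018 counts per library, and the relation of the 2 libraries to separate animals rests on labels that conflict.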
